A study of Mus musculus with 8 samples.

Results

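The genes described here encode OGT, the enzyme that attaches O-GlcNAc to nuclear and cytosolic proteins and that binds TET proteins, and core parts of the SIN3 co-repressor complex, with which TET1 has been found. They are *Ogt*, *Sin3a*, *Sin3b*, *Hdac1*, *Hdac2*, *Sap30*, *Suds3*, *Ing1*, *Ing2* and *Arid4b*. They were taken by gene symbol, 10 of the 54281 genes in the deposited tables, and no symbol occurred in more than 1 row. All 10 passed the filter on low counts that left 17272 genes for testing.

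TET1 oxidizes 5-methylcytosine, and it also acts without its catalytic activity through the proteins it binds. OGT uses UDP-GlcNAc, the end product of the hexosamine pathway, and it cleaves the co-regulator HCF-1 as well as modifying it. SIN3A and SIN3B are scaffolds without enzymatic activity that carry the histone deacetylases HDAC1 and HDAC2, so that repressors bound to DNA can remove acetyl groups from nearby histones. RNA levels of these genes were measured. Binding to TET1, protein amounts and enzyme activity were not.

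The libraries came from 4 *Tet1* KO lines, numbered KO1, KO9, KO15 and KO25, and from 4 WT lines, numbered WT7, WT17, WT12 and WT34, of (B6 × 129S6)F1 embryonic stem cells, the KO lines being homozygous for the *Tet1*tm1Koh allele. Both groups were converted to epiblast-like cells (EpiLCs), a model of formative pluripotency, for 2 days in N2B27 medium with 12 ng/mL bFGF and 1% KOSR on fibronectin, and no activin A was added. Each line comes from a separate blastocyst and gave 1 library, so that every p-value measures the spread between lines, with cultures and libraries mixed into it. The names of the table columns end in b2 (KO15, KO25, WT12 and WT34) or b1 (KO1, KO9, WT7 and WT17); what this suffix stands for is not given in the sources used here, and it is treated only as a label that splits each genotype into 2 and 2 lines.

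Estimated counts, rounded to whole numbers, summed to between 13916400 and 23680640 per line. *Tet1* itself had 45.3, 38.4, 53.5 and 54.2 CPM (counts scaled to the size of the library) in the KO lines against 816, 775, 559 and 851 CPM in the WT lines, which fits the genotype labels. The genes *Pou5f1*, *Dnmt3b*, *Otx2*, *Fgf5* and *Pou2f2*, taken as EpiLC markers, summed to between 729 and 777 TPM in KO lines and to between 660 and 826 TPM in WT lines, against at most 29.7 TPM for the 5 naive markers in any line. Their means over the 8 lines were 457, 248, 22.5, 11.6 and 3.01 TPM, against 12.9 TPM for the naive marker *Zfp42*. The sum thus rests mostly on *Pou5f1* and *Dnmt3b* and does not by itself place the lines in the formative state. The library of WT12 stood apart. It had 13.3 TPM of *Xist*, the RNA that coats an inactive X chromosome, against 0.103 to 0.514 TPM in the other libraries, and the lowest *Eif2s3y* level at 5.20 TPM, against 21.3 to 38.4 TPM in the others, although the study describes its lines as male. In WT12 the median X-linked gene was 0.29 higher on the log2 scale than in the mean of the other b2 lines, against −0.0045 for the median autosomal gene. WT12 also differed in markers of state, with a naive sum of 12.3 TPM against 21.2 to 29.7 TPM in the other lines. *Fgf5* had 18.8 TPM in WT12 against 7.48 to 14.8 TPM in the others, whereas *Otx2*, at 26.4 TPM, lay within their range. Values without WT12 are given for some of the results only.

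The promoters of *Ogt* and *Sin3a* are shown because RNA of both genes was lower in b2 than in b1 lines, as described further on. Both sequences are the 250 bases before a RefSeq start site on build GRCm38.p6, with matches to the GC box (GGGCGG) and the CCAAT box (CCAAT), read on both strands, in capitals. *Ogt* is taken from the plus strand of chrX:101639801-101640050 and *Sin3a* from the plus strand of chr9:57071790-57072039.
Ogt: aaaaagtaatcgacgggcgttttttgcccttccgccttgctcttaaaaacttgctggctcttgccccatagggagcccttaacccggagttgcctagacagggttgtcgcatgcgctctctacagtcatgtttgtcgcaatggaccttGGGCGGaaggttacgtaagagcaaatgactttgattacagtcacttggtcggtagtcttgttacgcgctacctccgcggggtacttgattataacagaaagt
Sin3a: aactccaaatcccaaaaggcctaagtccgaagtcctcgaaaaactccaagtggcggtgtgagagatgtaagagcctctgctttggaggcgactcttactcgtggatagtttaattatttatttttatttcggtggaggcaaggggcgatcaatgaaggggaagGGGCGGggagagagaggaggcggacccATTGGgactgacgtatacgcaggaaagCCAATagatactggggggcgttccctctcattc

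The *Ogt* window shown held 15 CpG dinucleotides and the *Sin3a* window shown 12, against a median of 6 over all 32851 RefSeq windows of this length. The GC box occurred once in each. Both genes have a second window at another start site, which is not shown. That of *Ogt* held 13 CpG and 1 GC box, and that of *Sin3a* held 19 CpG, 3 GC boxes and 3 CCAAT boxes. Over the 9 members with a window (all but *Hdac1*), 14 of 15 windows held a GC box, against 32.7% of all windows; the single window of *Arid4b* held none. The CCAAT box was found in 7 of the 15 windows, among them the *Sin3a* window shown, with 2 matches, against 33.8% of all windows. Windows of 1 gene overlap in part, and a match describes the letters and not a bound site.

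All 10 genes were expressed in every EpiLC line. TPM, which are corrected for transcript length and can be set side by side between genes, placed them between the 61.4th percentile of the genes tested for *Arid4b* and the 97.6th percentile for *Suds3*. The order by mean TPM over 8 lines (± SD) began with *Suds3* at 297 ± 41.1 TPM and went on with *Hdac2* at 65.0 ± 4.20, *Hdac1* at 63.6 ± 6.49 and *Sin3a* at 56.4 ± 12.2 TPM. These were followed by *Ing1* at 32.6 ± 6.12, *Ogt* at 29.6 ± 8.34 and *Sin3b* at 28.1 ± 3.32 TPM, and the lowest were *Sap30* at 18.0 ± 1.99, *Ing2* at 12.3 ± 2.63 and *Arid4b* at 8.14 ± 1.15 TPM. Among neighbours in this order, only *Suds3* against *Hdac2* and *Sin3b* against *Sap30* had ranges that did not overlap over the 8 lines. On this scale the ranges of the deacetylase genes overlapped, and *Sin3a* lay above *Sin3b* in every line.

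The first place of *Suds3* depended on the transcript to which its reads were assigned. Count divided by TPM follows the mean effective length (the length less about a fragment) of the transcripts that Salmon assigned to a gene. Calibrated on 375 genes with a single annotated transcript, this ratio gave 137 ± 16.4 bases for *Suds3* (SD, n = 8 lines), with 111 to 160 bases in the KO lines and 121 to 141 bases in the WT lines. The calibration used transcripts of at least 1500 bases and assumed a fragment of 250 bases. Values for shorter transcripts, as for *Suds3*, extrapolate from that range, and their absolute size is uncertain. The coding transcripts of *Suds3* in GENCODE M21 are 1694 and 2425 bases long; M21 is not the release that the study names for its quantification, so these lengths need not be those used there. The shortest of its 6 annotated transcripts, Suds3-204, has 215 bases in 4 exons within chr5:117105294-117109862 (mm10, minus strand) and is annotated as a retained intron. Its sequence is shown because most of it is shared with the coding transcripts, with the 49 bases that lie outside any coding exon in capitals and the other 166 bases in lower case.
Suds3-204: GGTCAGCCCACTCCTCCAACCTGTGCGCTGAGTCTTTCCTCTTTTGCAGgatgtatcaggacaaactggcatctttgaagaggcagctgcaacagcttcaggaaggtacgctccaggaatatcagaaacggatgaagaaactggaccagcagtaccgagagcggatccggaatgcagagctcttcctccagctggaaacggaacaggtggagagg

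Divided by the length of the longest coding transcript instead, a scale added after the data had been seen, *Suds3* was in place 5 with 39.3 CPM per kilobase, behind *Hdac1* at 117, *Hdac2* at 52.3, *Ogt* at 46.3 and *Sin3a* at 42.1 CPM per kilobase. On this scale *Sap30* followed at 35.3, *Ing1* at 25.7, *Sin3b* at 16.5, *Arid4b* at 13.4 and *Ing2* at 7.27 CPM per kilobase. *Ing2* had an implied effective length of 700 ± 43.0 bases, against 2812 bases for its only coding transcript, and *Sin3a* of 1651 ± 104 bases, against up to 5206 bases. *Sap30* has a single annotated transcript of 1178 bases and gave 969 ± 26.8 bases. TPM thus depend on which transcripts received the reads, and the comparisons between lines that follow use counts. *Hdac1* and *Hdac2* did not overlap on the scale per kilobase, with 92.2 to 135 and 50.4 to 54.4 CPM per kilobase over the 8 lines.

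**Figure D1:**
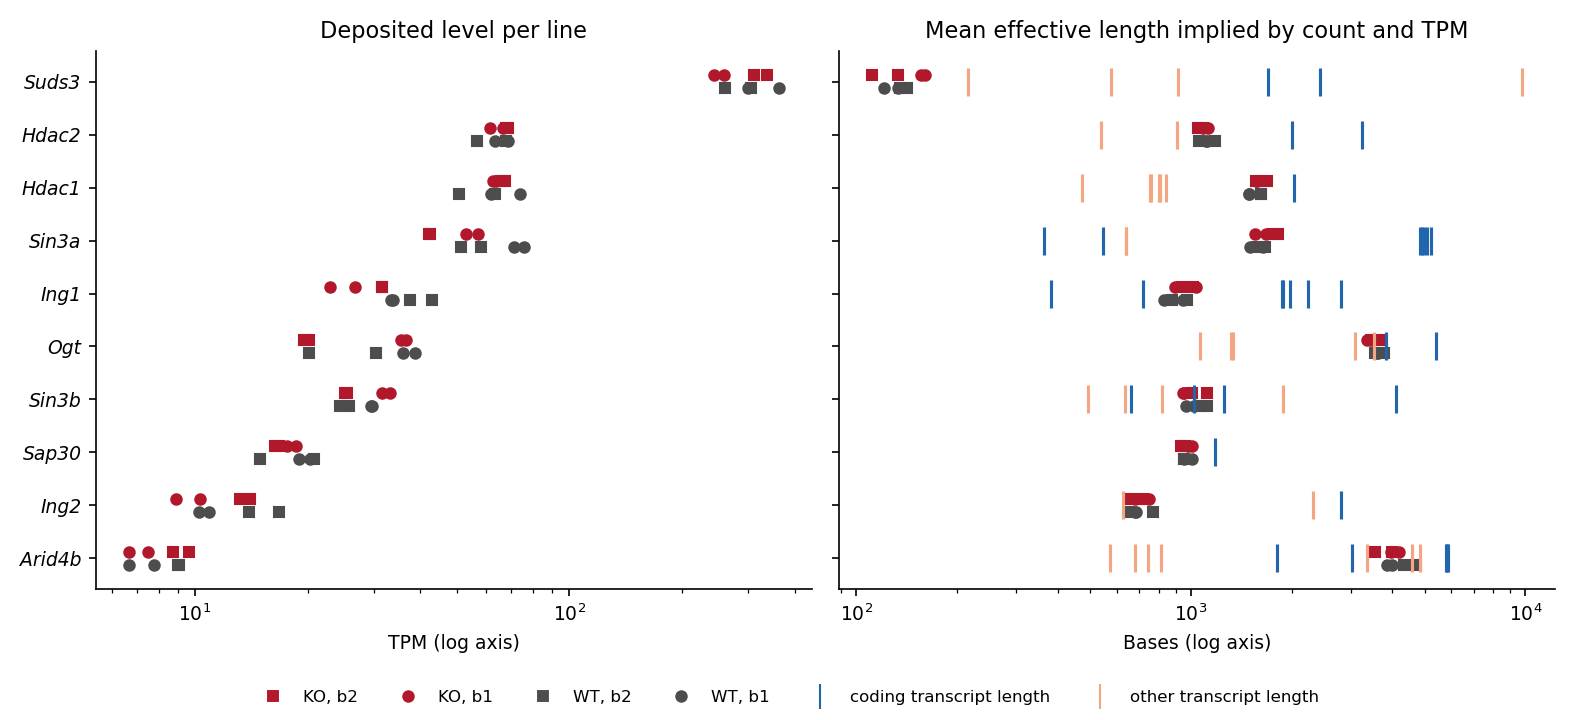
Left, deposited TPM of each gene in the 8 lines (log axis; red KO, grey WT; squares b2, circles b1), ordered by mean TPM. Right, the mean effective transcript length implied by count and TPM in the same lines, with the lengths of annotated coding (blue) and other (orange) transcripts as ticks; the points of *Suds3*, at 111 to 160 bases, lie left of all its annotated transcripts, whereas those of *Sap30*, at 935 to 1009 bases, lie close to its single transcript of 1178 bases.

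The question of the design is whether loss of TET1 goes with other RNA levels of its partners. None of the 10 genes passed the test between KO and WT lines (edgeR's quasi-likelihood test, Benjamini-Hochberg adjusted p under 0.05), against 0.0405% of all genes tested (7 of 17272), and for none did the 4 KO lines lie apart from the 4 WT lines, against 4.19% of all genes tested. At an unadjusted p under 0.05 there was 1 of 10, *Sin3a*, with this test, against 5.62% of all genes tested, and with DESeq2, against 6.04%; there were 2 of 10, *Sin3a* and *Ing1*, with limma on log2(TPM + 1), against 4.68%. The median log2 fold change of the 10 genes was −0.098, against −0.0044 over all genes tested. This median was −0.05 without KO1 and −0.016 without WT34. Of the 10 fold changes 3 were positive, against 8467 of 17272 over all genes tested. In bulk RNA, fewer cells of a type and less RNA per cell cannot be told apart.

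*Ogt* (chromosome X, 101640060 to 101684351, plus strand, mm10) had 283, 306, 167 and 169 CPM in lines KO1, KO9, KO15 and KO25, against 318, 318, 246 and 187 CPM in WT7, WT17, WT12 and WT34. The groups overlapped, and in each the b2 lines were the low ones. KO lines averaged 231 ± 73.4 CPM against 267 ± 63.5 CPM for WT lines (SD, n = 4 each). The log2 fold change was −0.21 (95% interval −0.75 to 0.33, adjusted p = 0.998 by edgeR's quasi-likelihood test), so that anything between a 40.5% lower and a 26.0% higher level in KO lines was within the interval. Leaving out 1 line moved it between −0.37 (without KO9) and −0.08 (without KO15), and it was −0.25 without WT12.

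*Sin3a*, the scaffold gene (chromosome 9, 57072040 to 57128366, plus strand), had 212, 215, 185 and 177 CPM in lines KO1, KO9, KO15 and KO25, against 281, 266, 209 and 209.6 CPM in WT7, WT17, WT12 and WT34. The KO lines were lower on average, at 197 ± 18.9 CPM against 241 ± 37.6 CPM, but KO1 and KO9 lay just above WT12 and WT34. The log2 fold change was −0.29 (95% interval −0.56 to −0.02, unadjusted p = 0.038, adjusted p = 0.84 by edgeR's quasi-likelihood test). Its paralogue *Sin3b* (chromosome 8, 72723285 to 72758201, plus strand) had 75.2, 72.3, 60.6 and 67.7 CPM in lines KO1, KO9, KO15 and KO25, against 70.8, 68.0, 61.9 and 67.3 CPM in WT7, WT17, WT12 and WT34. These groups overlapped over almost their whole range, with a log2 fold change of 0.04 (95% interval −0.16 to 0.25) that was −0.002 without KO1.

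The deacetylase genes did not separate the genotypes either. *Hdac2* (chromosome 10, 36974544 to 37001889, plus strand) had 172, 167, 177 and 171 CPM in lines KO1, KO9, KO15 and KO25, against 174, 171, 164 and 164 CPM in WT7, WT17, WT12 and WT34. Its highest line had 1.08 times the level of its lowest, the smallest such ratio among the 10 genes, and the log2 fold change was 0.03 (95% interval −0.11 to 0.17). *Hdac1* (chromosome 4, 129516104 to 129542713, minus strand) had 238, 238, 274 and 245 CPM in lines KO1, KO9, KO15 and KO25, against 227, 248, 188 and 250.5 CPM in WT7, WT17, WT12 and WT34. WT12 was the low line, and the log2 fold change of 0.12 (95% interval −0.11 to 0.36) became 0.04 without it.

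*Sap30*, whose product links the deacetylases to the scaffold (chromosome 8, 57482707 to 57487860, minus strand), had 43.4, 42.9, 38.7 and 36.5 CPM in lines KO1, KO9, KO15 and KO25, against 44.4, 46.2, 32.6 and 48.5 CPM in WT7, WT17, WT12 and WT34. The WT lines enclosed the KO lines, again with WT12 lowest, and the log2 fold change of −0.09 (95% interval −0.39 to 0.21) was −0.20 without WT12 and −0.02 without WT34. *Suds3*, the mouse counterpart of the yeast subunit Sds3 (chromosome 5, 117091680 to 117116113, minus strand), had 93.0, 98.0, 99.9 and 88.8 CPM in lines KO1, KO9, KO15 and KO25, against 98.3, 99.6, 94.0 and 90.3 CPM in WT7, WT17, WT12 and WT34. Counts of *Suds3* thus differed little between lines, with a log2 fold change of −0.01 (95% interval −0.17 to 0.16) that was 0.02 without KO25.

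ING1 and ING2 carry a PHD finger that reads trimethylated lysine on histone H3 and so ties the complex to active promoters. *Ing1* (chromosome 8, 11555571 to 11563251, plus strand) had 56.8, 58.2, 76.7 and 70.8 CPM in lines KO1, KO9, KO15 and KO25, against 69.0, 71.5, 86.2 and 89.8 CPM in WT7, WT17, WT12 and WT34. KO lines averaged 65.6 ± 9.69 CPM and WT lines 79.2 ± 10.4 CPM, with a log2 fold change of −0.27 (95% interval −0.56 to 0.02, adjusted p = 0.927 by edgeR's quasi-likelihood test), and KO15 lay above WT7 and WT17. *Ing2* (chromosome 8, 47667178 to 47675556, minus strand) was the least counted of the 10, with 15.9, 16.9, 24.2 and 20.8 CPM in lines KO1, KO9, KO15 and KO25, against 17.1, 17.003, 24.6 and 26.8 CPM in WT7, WT17, WT12 and WT34, from 285 to 590 counts per line. Its log2 fold change was −0.13 (95% interval −0.58 to 0.31), and it was −0.26 without KO15 and −0.008 without WT34.

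*Arid4b* (chromosome 13, 14063232 to 14199603, plus strand), whose product holds an ARID DNA-binding domain, had 66.6, 71.9, 82.1 and 82.6 CPM in lines KO1, KO9, KO15 and KO25, against 65.6, 67.7, 89.8 and 104 CPM in WT7, WT17, WT12 and WT34. The lines fell into b2 lines at 82.1 CPM and more and b1 lines at 71.9 CPM and less, whatever the genotype. The log2 fold change was −0.11 (95% interval −0.46 to 0.24), and it was −0.20 without WT7 but turned to 0.03 without WT34 and to 0.05 within b1. *Arid4b* overlaps *Ggps1* on the other strand, and the libraries were made with a stranded kit; whether the quantification used the strand is not given in the sources used here.

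**Figure D2:**
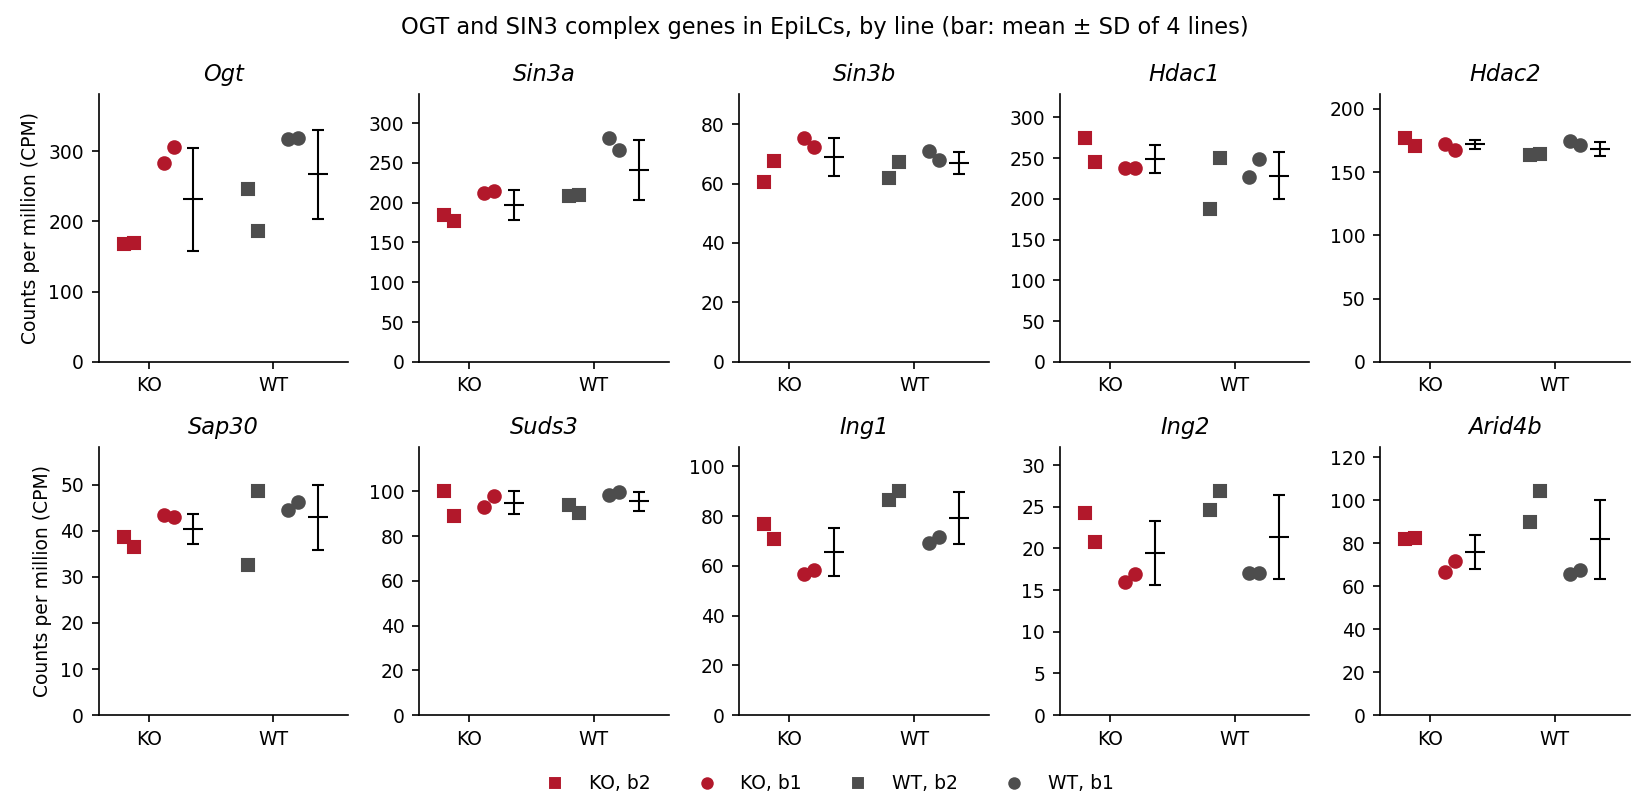
CPM of the 10 genes in each line, KO (red) left of WT (grey), with b2 lines as squares and b1 lines as circles; the black bar is the mean ± SD of 4 lines and each axis starts at 0. In no panel do the KO and WT lines separate, whereas b2 and b1 lines separate for *Ogt*, where they had 167 to 246 and 283 to 318 CPM, and for *Sin3a*, *Sin3b*, *Ing2* and *Arid4b*.

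Within each suffix the comparison rests on 2 KO and 2 WT lines. For *Ogt*, *Sin3a*, *Ing1* and *Ing2*, the KO lines were below the WT lines without overlap both within b2 and within b1, a pattern shown by 6.08% of all genes tested; for *Ing2* in b1 the gap was between 16.9 and 17.003 CPM. No gene of the 10 showed the opposite pattern, but its share over all genes tested was not computed, so that nothing is read from this. With the suffix as a block, which narrowed the standard errors, 0 of 10 passed the test, against 0.162% of all genes tested (28 of 17272), and 3 of 10 had an unadjusted p under 0.05, against 11.9% of all genes tested. These were *Sin3a*, with a log2 fold change of −0.28 (95% interval −0.41 to −0.16, adjusted p = 0.104), *Ing1*, with −0.27 (−0.41 to −0.14, adjusted p = 0.142), and *Ogt*, with −0.24 (−0.44 to −0.03, adjusted p = 0.355), all by edgeR's quasi-likelihood test. The point estimates correspond to levels 17.9%, 17.2% and 15.2% lower in KO lines, and they fail the correction over all genes.

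Leaving out WT12 in the blocked fit, an alternative added after the data had been seen, gave −0.13 for *Ogt* (adjusted p = 0.373), whereas *Sin3a* had −0.30 (adjusted p = 0.085) and *Ing1* −0.29 (adjusted p = 0.12). In this fit 0 of the 10 genes passed, against 0.34% of all genes tested (60 of 17626). Within b2 and within b1 the fold changes were −0.36 and −0.11 for *Ogt*, −0.20 and −0.36 for *Sin3a*, and −0.25 and −0.29 for *Ing1* on the log2 scale. The difference of the genotype effect between the suffixes was tested as an interaction and passed for 0 of 10 genes, against 0% of all genes tested, with 0 of 10 at an unadjusted p under 0.05, against 1.31% of all genes tested; DESeq2 also called 0 of 10. For *Ogt* the interval of that difference ran from −0.65 to 0.15 and for *Arid4b*, with the smallest p of the 10 (0.0837), from −0.63 to 0.05.

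**Figure D3:**
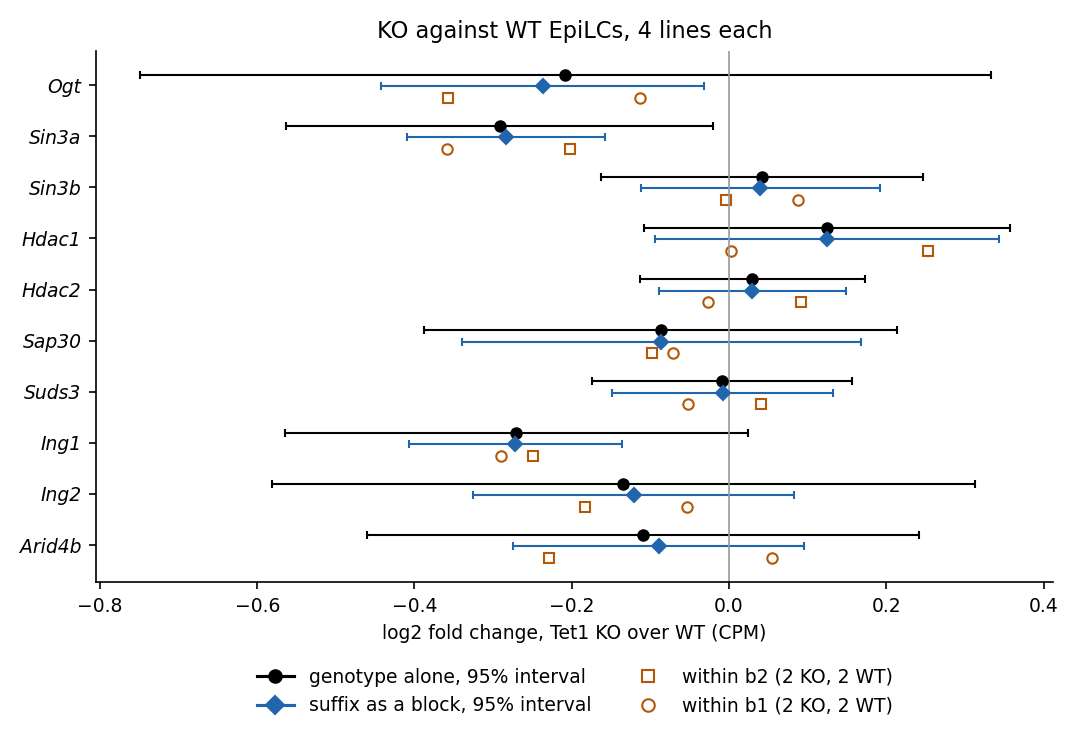
log2 fold change of KO over WT lines for each gene: black circles from genotype alone and blue diamonds with the suffix as a block, both with 95% intervals, and open symbols within b2 (squares) and within b1 (circles). The intervals are widest for *Ogt* (−0.75 to 0.33) and shrink with the block to −0.44 to −0.03, while *Hdac2* and *Suds3* stay close to 0.

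Between b2 and b1 lines, with genotype in the model, 5 of the 10 genes passed the test, against 24.6% of all genes tested (4253 of 17272). Of these, 3 were higher in b2 lines, against 13.7% of all genes tested, and 2 were lower, against 11% of all genes tested. The b2 and b1 lines did not overlap in CPM for 5 of 10 genes, against 26.3% of all genes tested. The libraries of this series were already known to separate by suffix, so that these counts describe how far the 10 genes take part in it.

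*Ogt* was lower in b2 lines, with a mean of 192 ± 36.7 CPM against 306 ± 16.5 CPM in b1 lines (SD, n = 4 each). The log2 difference was −0.68 (95% interval −0.89 to −0.47, adjusted p = 0.00108 by edgeR's quasi-likelihood test), or 37.6% lower. WT12, the line with the high *Xist* level, had 0.50 more on the log2 scale than the mean of the other b2 lines; the part of the X chromosome in this was not tested, and the difference between the suffixes was −0.81 without WT12. With 2 lines against 2, *Ogt* was the only gene of the 10 that passed the test among the KO lines alone (−0.81), against 5.79% of all genes tested. Among the WT lines alone it did not pass (−0.56, adjusted p = 0.111 by edgeR's quasi-likelihood test), and 1.54% of all genes tested did. Of the 611 X-linked genes tested, to which *Ogt* belongs, 3.76% were lower in b2 lines, against 11.2% of the autosomal genes, and their median log2 difference was 0.09. These X-linked values include WT12, where the median X-linked gene was 0.29 higher on the log2 scale than in the mean of the other b2 lines. They were not computed without WT12. *Sin3a* was also lower in b2 lines, at 195 ± 16.6 CPM against 243 ± 35.2 CPM in b1 lines, with a log2 difference of −0.31 (95% interval −0.44 to −0.19, adjusted p = 0.00434). The gap between the suffixes was small, with 212 CPM in KO1, the lowest b1 line, and 209.6 CPM in WT34, the highest b2 line.

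*Ing2* was higher in b2 lines, at 24.1 ± 2.50 CPM against 16.7 ± 0.543 CPM in b1 lines, a log2 difference of 0.52 (95% interval 0.32 to 0.73, adjusted p = 0.00366). *Arid4b* was higher as well, at 89.7 ± 10.3 CPM against 68.0 ± 2.78 CPM, a log2 difference of 0.40 (0.21 to 0.58, adjusted p = 0.00818). *Ing1* had 80.9 ± 8.74 CPM in b2 lines against 63.9 ± 7.46 CPM in b1 lines, a log2 difference of 0.34 (0.21 to 0.48, adjusted p = 0.00392), and its groups overlapped because WT17 lay above KO25. On the log2(TPM + 1) scale with limma, *Ing1* missed the threshold (adjusted p = 0.0523) and *Sin3b* passed it (−0.29, adjusted p = 0.0281).

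The remaining genes did not pass. *Sin3b* had a log2 difference of −0.15 (95% interval −0.31 to −0.001, adjusted p = 0.13), although its b2 lines, at 60.6 to 67.7 CPM, all lay below its b1 lines, at 68.0 to 75.2 CPM. *Sap30* had −0.18 (−0.44 to 0.07). It passed once WT34 was left out (−0.31, adjusted p = 0.0458), whereas without WT12 the difference was −0.09 (adjusted p = 0.454), both by edgeR's quasi-likelihood test. The intervals were −0.21 to 0.22 for *Hdac1*, −0.14 to 0.10 for *Hdac2* and −0.20 to 0.08 for *Suds3*. RNA of the SIN3 complex genes thus differed in both directions, as over all genes tested (13.7% higher, 11% lower). The scaffold gene *Sin3a* was lower in b2 lines, the subunit genes *Ing1*, *Ing2* and *Arid4b* were higher, and the deacetylase genes did not pass the test.

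Across the 8 lines, the log2 CPM of *Ing2* and *Arid4b* had a Pearson correlation of 0.95, *Ing1* and *Ing2* of 0.89, *Ogt* and *Sin3a* of 0.82 and *Ing1* and *Arid4b* of 0.81. *Ogt* and *Ing2* ran against each other at −0.78. These values describe 8 lines that share the split by suffix, and they carry no test. Among 8723 genes with a mean of at least 10 CPM, the patterns most like *Ogt* over the 8 lines were those of *Pnisr* (0.995), *Cox6b2* (0.993) and *Cds2* (0.990), and those most like *Sin3a* were *Pisd* (0.980), *Papolg* (0.972) and *Rnaseh2a* (0.968).

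Markers of other cells were set beside the suffix. The 7 feeder fibroblast markers summed to between 5.45 and 17.3 TPM in b2 lines and to between 19.9 and 29.9 TPM in b1 lines, of which *Thy1* gave 3.63 to 15.9 TPM in b2 lines and 18.0 to 28.3 TPM in b1 lines and *Dcn* at most 4.12 TPM in any line, while *Postn* was at 0 in all 8 libraries and *Lum* in 7. Among the collagen genes of this list, *Col1a1* had 0.024 to 0.187 TPM in b2 lines and 0.024 to 0.772 TPM in b1 lines. *Col1a2* had 0.086 to 0.169 TPM in b2 lines and 0.055 to 0.124 TPM in b1 lines. *Col3a1* had 0.003 to 1.16 TPM in b2 lines and 0 to 0.12 TPM in b1 lines. The 6 extraembryonic endoderm markers summed to between 2.88 and 4.56 TPM in b2 lines and to between 1.81 and 3.04 TPM in b1 lines. Of this, *Dab2* gave 1.88 to 3.82 TPM in b2 lines and 1.13 to 2.39 TPM in b1 lines, and *Sox17* had at most 0.128 TPM. The naive markers had 12.3 to 29.7 TPM in b2 lines and 21.2 to 26.7 TPM in b1 lines. The part of these differences in the results on the suffix was not tested.

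The neighbours of these genes in the same pathways were taken as 5 lists with 50 genes, all of them tested. Between KO and WT lines 0 of the 50 passed the test, with and without the suffix as a block, and the median log2 fold change was 0.02. The smallest p in each list belonged to *Sinhcaf* (0.30, adjusted p = 0.936), a SIN3 subunit gene of pluripotent cells, to *Pgm3* (−0.15, adjusted p = 0.997) of the hexosamine pathway, to *Hcfc1* (−0.14, adjusted p = 0.998), the substrate that OGT cleaves, to *Mta2* (0.19, adjusted p = 0.802) of the NuRD complex, and to *Mxd4* (−0.85, adjusted p = 0.622), a MAX partner that recruits SIN3; each value is a log2 fold change with its adjusted p, by edgeR's quasi-likelihood test. *Mxd4* was low in all lines, with means of 3.64 CPM for KO and 6.54 CPM for WT lines.

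Between b2 and b1 lines 13 of the 50 passed, or 26%, close to the 24.6% of all genes. Of the 7 enzyme genes of O-GlcNAc and its donor, 3 were lower in b2 lines and 0 higher, against 11% lower and 13.7% higher of all genes tested. They were *Gfpt1* (−0.37, adjusted p = 0.0149) and *Gfpt2* (−0.34, adjusted p = 0.0394), which encode the entry enzyme of the hexosamine pathway, and *Uap1* (−0.25, adjusted p = 0.0433), which encodes the enzyme that forms the UDP-linked sugar; *Oga*, whose product removes O-GlcNAc, had 370.0 ± 35.2 CPM in b2 lines against 371 ± 18.2 CPM in b1 lines. The b2 and b1 lines overlapped for *Gfpt2*, with 62.6 CPM in KO25 and 57.0 CPM in WT17, and the donor synthesis genes *Gnpnat1* (0.21) and *Pgm3* (−0.03) did not pass. Of the 14 other SIN3 subunits, 3 passed (21.4%, against 24.6% of all genes tested), all of them higher. They were *Brms1* (0.50, adjusted p = 0.0243), *Phf12* (0.43, adjusted p = 0.0126) and the H3K4 demethylase gene *Kdm5a* (0.36, adjusted p = 0.0228). Of all genes tested, 13.7% were higher and 11% lower.

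Of the 5 genes for OGT-binding proteins and other TET enzymes, 2 were higher in b2 lines and 0 lower, against 13.7% higher and 11% lower of all genes tested. *Tet3* had 56.6, 64.6, 56.2 and 56.4 CPM in KO15, KO25, WT12 and WT34, against 34.6, 27.1, 26.0 and 30.1 CPM in KO1, KO9, WT7 and WT17, a log2 difference of 0.99. This put every b2 line well above every b1 line in either genotype, and *Hcfc1* was higher by 0.21 (adjusted p = 0.0169). The *Hcfc1* value includes WT12, its highest line at 801 CPM. KO25, its lowest b2 line at 694 CPM, lay next to WT17, its highest b1 line at 691 CPM. Of the 14 genes for other class I deacetylases and the other complexes of HDAC1 and HDAC2, 4 passed, or 28.6%, against 24.6% of all genes tested. *Rcor1* (0.33) and *Rcor2* (0.51) of CoREST were higher, while *Kdm1a* (−0.23), the demethylase of the same complex, and *Mta1* (−0.50) of NuRD were lower. Of the 10 recruiters and Polycomb genes 1 passed, or 10%, against 24.6% of all genes tested. This was *Mnt*, which encodes a MAX partner that brings SIN3 to DNA, and it was higher by 0.83, while *Ezh2* (−0.01), *Suz12* (−0.01) and *Eed* (0.04) did not pass.

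**Figure D4:**
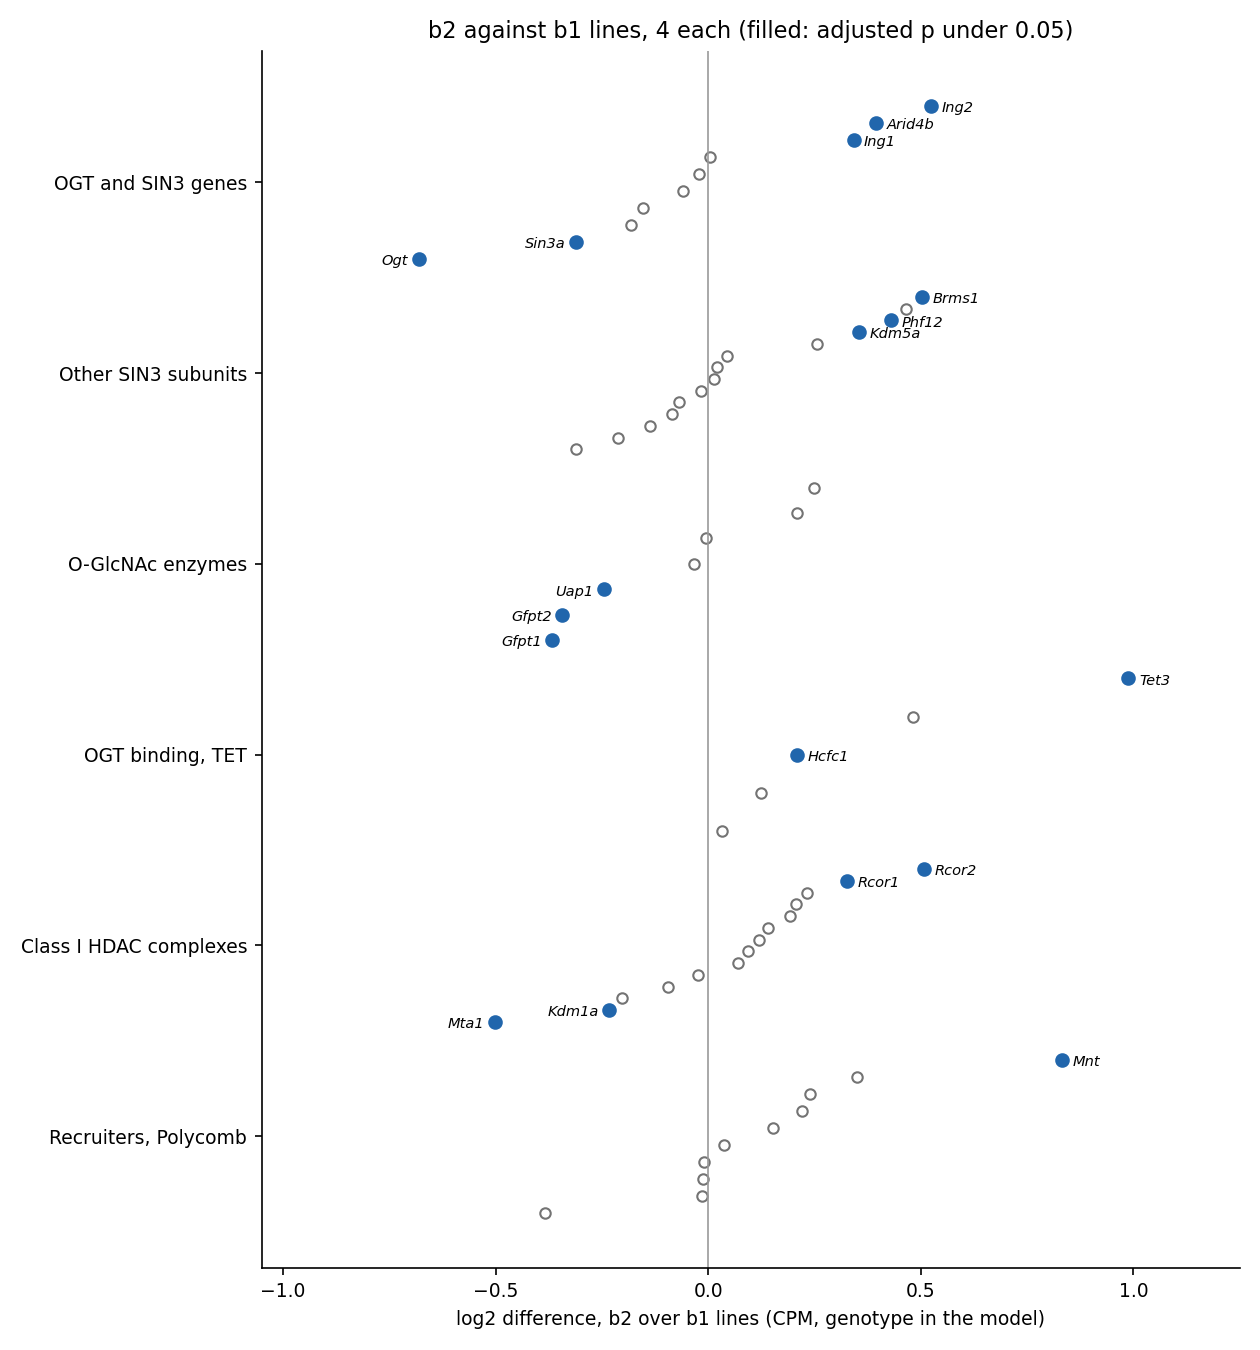
log2 difference of b2 over b1 lines for the 10 genes (top) and for the 50 genes of 5 pathway lists, with genotype in the model; filled blue points passed an adjusted p of 0.05 and are named, open points did not. *Ogt* at −0.68 is the lowest point shown and *Tet3* at 0.99 the highest; the 3 named O-GlcNAc enzyme genes lie on the same side as *Ogt*.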

How the data were processed

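RNA-seq of 8 EpiLC lines was analysed. By the study's methods and the submitters' processing notes, the authors trimmed single-end reads with Trim Galore 0.6.4, quantified them with Salmon 0.14.1 against GENCODE mouse transcripts (build mm10) and imported them into R 4.0.2, and they deposited estimated counts and TPM per gene. Estimated counts were rounded, which changed 27.8% of values. edgeR 4.0.16 (R 4.3.3) fitted quasi-likelihood models across the 17272 genes kept by filterByExpr and TMM-normalized, and p-values were adjusted over all of them by Benjamini-Hochberg; CPM use TMM-scaled library sizes. At these totals, 1 count is far below 1 CPM, and intervals come from the same fits.

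KO was compared with WT by genotype alone, with the column suffix as a block and within each suffix, and b2 with b1 with genotype in the model. The 10 genes, the pathway lists and the rule for named genes (all 10, genes of the lists that passed or had the smallest p, and the 3 genes most like *Ogt* and *Sin3a*) were chosen with earlier results of these data known. *Xist*, *Eif2s3y* and the X-linked genes were examined after values had been seen. Columns were matched to libraries by title; for WT12 and WT17 the cell line labels read WT9 and WT12, and either name is WT. The study describes littermate pairs, but the pairs are not given in the sources used here and no pairs were formed. Gene models are GENCODE M21, a release other than the one the authors named (10 of 10 IDs matched with version) and promoters RefSeq. Alternatives used DESeq2 1.42.0 and limma 3.58.1 (log2 of TPM plus a pseudocount of 1 or 0.1), other normalizations and filters, and each line left out. The scripts were tested on simulated data.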

Additional observations from a re-analysis of the deposited data

Results flagged for a closer look

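Within groups of 4 lines, 80 sets of CPM or TPM values were screened for a lowest or highest line that stood far from its neighbour (gap over range above Dixon's 95% critical value), which chance gives in about 1 of 20 sets; 3 passed. *Ogt* had 30.4 TPM in WT12, against 19.6 to 20.2 TPM in the other b2 lines; WT12 is also the library with the high *Xist* level, and the part of this in the *Ogt* value was not tested. *Hdac2* had 56.7 TPM in WT34, the lowest of the b2 lines, where its CPM, at 164, lay next to that of WT12. *Ing2* had 15.9 CPM in KO1, the lowest of the b1 lines, against 16.9 to 17.1 CPM in the others.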

How the results depend on the processing

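Between KO and WT lines, all 180 values of the 10 genes under 18 alternatives stayed short of the threshold, and 0 of 10 genes passed under each. The median log2 fold change of the 10 genes (−0.098) was −0.14 within b2 and −0.053 within b1, and it ranged between −0.090 and −0.016 when single lines were left out, weakest without WT34; it kept its sign throughout. The number of the 10 genes passing between b2 and b1 (5) ran from 4 to 6 under the other normalizations, filters, tests and lines left out, where 11.5% to 29.0% of all genes tested passed. It was 1 among the KO lines alone, against 5.79% of all genes tested, and 0 among the WT lines alone, against 1.54%, where 2 lines stand against 2. Of 170 single values for the suffix, 154 stayed on their side of the threshold, 12 no longer passed and 4 newly passed; 0 turned round among those that passed. Over all genes, DESeq2 called 105 between KO and WT, against 7 with edgeR and 28 with the suffix as a block, and 0 of the 10 genes under each. No paired analysis was possible because the groups share no line numbers and the littermate pairs of the study are not given in the sources used here. Order by level changed by median TPM only for *Ogt* and *Ing1*, which swap ranks 5 and 6. By CPM per kilobase of the longest coding transcript, only *Hdac2* (rank 2) and *Sin3a* (rank 4) kept their ranks. There *Suds3* moved from rank 1 to 5, *Hdac1* from 3 to 1 and *Ogt* from 6 to 3.

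The design compares 4 lines with 4, and for *Ogt*, *Sin3a*, *Ing1* and *Ing2* the intervals reached levels more than 30% lower in KO lines. Differences between lines, cultures and libraries cannot be told apart, nor can those between b2 and b1 be given a source. TPM levels of genes with short annotated transcripts depend on read assignment.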
